A study of Mus musculus with 8 samples.

Results

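The genes described here are 9 genes through which male germ cells control when a stored mRNA is translated: *Dazl*, *Boll*, *Cpeb1*, *Cpeb2*, *Pum2*, *Pabpc1*, *Paip2*, *Ybx2* and *Ddx25*. They were listed by name and no measured value entered the rule, but earlier results of these data were known when they were chosen. They are 9 of the 23343 genes in the RNA-seq tables, in which they fill 12 of 26099 isoform rows. Of the H3K27ac intervals, all those assigned to one of these genes or lying within 2 kb of one of its transcription start sites were taken. These were 23 of 41095 intervals in pachytene spermatocytes (PS) replicate 1, 34 of 49434 in PS replicate 2, 56 of 74919 in round spermatids (RS) replicate 1 and 46 of 45863 in RS replicate 2.

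All cells came from the testes of adult C57BL/6 mice and were separated by sedimentation through BSA under gravity, as PS, in the long prophase of the first meiotic division, or as RS, the haploid cells that follow meiosis. H3K27ac, a histone acetylation found at active promoters and enhancers, was measured by ChIPmentation in wild-type PS and wild-type RS, with 2 samples per stage. RNA was measured in PS and RS of *Rnf8*- and *Scml2*-dKO mice, which lack both the ubiquitin ligase RNF8 and the germline Polycomb-associated protein SCML2, again with 2 samples per stage. The dKO cells were sedimented on a small scale that lets PS and RS be taken from 1 male. The 2 assays thus come from different genotypes, and neither genotype has both, so each comparison below is between stages within a genotype and any effect of the dKO on these genes was not analysed here. With 2 samples against 2, an exact permutation test of a single value, two-sided, cannot go below p = 0.333. The p-values below therefore come from models fitted across all genes, edgeR's quasi-likelihood test for RNA and limma for H3K27ac, with Benjamini-Hochberg adjustment over all genes tested. The study calls the 2 samples of a stage biological replicates in both assays, while the labels do not name the animals. These p-values measure the spread between samples, part of which may be technical.

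Transcription slows and then stops as the spermatid nucleus condenses, and many mRNAs of late sperm proteins are made days before they are translated. In the meantime they are held in ribonucleoprotein particles and their poly(A) tails are shortened or lengthened. The RNA-binding proteins of the DAZ, CPEB, Pumilio and Y-box families, the poly(A)-binding proteins and their inhibitors, and RNA helicases set this timing. DAZL and BOLL belong to the DAZ family and bind the 3′ ends of germ cell mRNAs. CPEB1 and CPEB2 bind the cytoplasmic polyadenylation element, PUM2 represses the mRNAs it binds, PABPC1 coats poly(A) tails and PAIP2 displaces it, YBX2 (MSY2) stores and masks mRNAs, and DDX25 (GRTH) is a helicase needed to complete spermatid development.

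The 4 RNA libraries held 9655405 to 12289694 reads on genes, and the 10 most abundant genes took 3.34% to 4.49% of them. Libraries followed their stage labels: the 8 round spermatid markers were all higher in RS, with a summed level of 473 and 802 RPKM (reads scaled to transcript length and library size) in PS and 13210 and 13985 RPKM in RS. Of the 8 pachytene markers, 5 were lower in RS, and their summed level went from 689 and 617 RPKM in PS to 156 and 208 RPKM in RS. All 7 Leydig cell markers were lower in RS, with summed levels of 785 and 568 RPKM in PS and 72.1 and 45.2 RPKM in RS. The 8 spermatogonial markers summed to 40.6 and 26.9 RPKM in PS and to 53.2 and 48.0 RPKM in RS, with 4 called higher and none lower. The 3 white blood cell markers were all higher in RS, where the list of 5 summed to 10.7 and 8.86 RPKM against 0.925 and 0.954 RPKM in PS, and both haemoglobin genes of the list were at 0. Of the 8 Sertoli cell markers 5 had enough reads to test and 3 were called higher, yet the list's sum, 65.5 and 31.6 RPKM in PS and 41.9 and 27.3 RPKM in RS, overlapped between the stages. The 4 peritubular and endothelial markers summed to 3.43 to 4.67 RPKM over all libraries, with 1 called lower. The part of these other cells in the values below was not tested. In such bulk samples, fewer cells of a type and less RNA per cell cannot be told apart. Reads of both deleted genes remained: *Rnf8* had 93, 110, 61 and 50 reads and *Scml2* had 40, 92, 44 and 98 in PS replicates 1 and 2 and RS replicates 1 and 2, and the deposited gene totals do not tell whether those reads lie outside the deleted parts.

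Sequences are shown for the start sites and distal elements on which the H3K27ac results turn. The start sites of *Ybx2* and *Ddx25* were the 2 called lower in RS with the chosen settings, *Dazl* lies near the distal element with the highest enrichment in any library, *Pum2* has the only other distal element found in every library, and *Cpeb1*, the least abundant RNA, has the only TATA box among the promoters at hand. The first 4 lines give the 250 bases before a RefSeq start site and the last 2 lines give 201 bases centred on the strongest H3K27ac summit, all in mm10 (GRCm38.p6) coordinates and 5′ to 3′. Promoters are on the strand of the gene and the distal elements on the + strand. Capitals mark the TATA box letters TATAAA, here on the opposite strand. No other match lay in these stretches.
*Ybx2* promoter, chr11:69935649-69935898, + strand: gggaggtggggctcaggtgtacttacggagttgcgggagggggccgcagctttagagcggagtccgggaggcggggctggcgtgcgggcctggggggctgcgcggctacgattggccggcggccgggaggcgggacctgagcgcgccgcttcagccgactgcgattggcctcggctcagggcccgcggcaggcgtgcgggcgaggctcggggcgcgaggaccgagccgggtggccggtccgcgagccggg
*Ddx25* promoter, chr9:35558471-35558720, - strand: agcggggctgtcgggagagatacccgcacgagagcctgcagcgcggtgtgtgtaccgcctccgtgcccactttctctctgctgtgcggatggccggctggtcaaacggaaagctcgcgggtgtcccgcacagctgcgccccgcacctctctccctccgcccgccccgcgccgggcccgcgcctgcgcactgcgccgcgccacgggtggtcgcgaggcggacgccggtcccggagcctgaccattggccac
*Dazl* promoter, chr17:50293621-50293870, - strand: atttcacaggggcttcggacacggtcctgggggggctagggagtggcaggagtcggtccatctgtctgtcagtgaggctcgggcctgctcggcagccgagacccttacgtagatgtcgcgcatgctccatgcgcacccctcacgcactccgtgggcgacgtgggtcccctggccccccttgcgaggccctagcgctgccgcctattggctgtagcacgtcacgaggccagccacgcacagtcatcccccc
*Cpeb1* promoter, chr7:81454759-81455008, - strand: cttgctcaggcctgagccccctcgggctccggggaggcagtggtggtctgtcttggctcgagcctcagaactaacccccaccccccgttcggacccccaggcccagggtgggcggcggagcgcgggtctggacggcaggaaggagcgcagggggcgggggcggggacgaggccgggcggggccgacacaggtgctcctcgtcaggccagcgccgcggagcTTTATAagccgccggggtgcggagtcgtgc
*Dazl* distal element, chr17:50238542-50238742: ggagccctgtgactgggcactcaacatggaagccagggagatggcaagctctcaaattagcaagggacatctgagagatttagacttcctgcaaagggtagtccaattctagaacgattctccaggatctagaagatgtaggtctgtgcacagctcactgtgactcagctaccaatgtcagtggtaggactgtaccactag
*Pum2* distal element, chr12:8640839-8641039: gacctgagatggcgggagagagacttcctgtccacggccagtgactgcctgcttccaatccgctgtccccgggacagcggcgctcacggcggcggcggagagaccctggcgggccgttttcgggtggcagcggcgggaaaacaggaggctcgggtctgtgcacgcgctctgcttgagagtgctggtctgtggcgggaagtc

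RefSeq promoter windows, from 250 bases before to 50 after a start site, were at hand for 6 of the 9 genes, *Dazl*, *Boll*, *Ybx2*, *Cpeb1*, *Pum2* and *Ddx25*. They held 13 to 44 CpG dinucleotides in 300 bases, against a median of 7 over 32851 windows. The *Dazl* window had 28 CpG and 68.7% G or C, whereas the 201 bases of its distal element had 1 CpG and 49.2% G or C. The distal element of *Pum2* resembled a promoter instead, with 19 CpG and 67.7% G or C. Of 4 motifs searched on both strands, TATAAA matched the *Cpeb1* window alone, beginning 30 bases before the start, and was found in 13.6% of all windows. The RFX half-site GTTGCCA matched only a second *Ybx2* window, whose start site is not in the RNA tables, and was found in 4.38% of all windows. The cAMP response element TGACGTCA, found in 1.79% of windows, and the MYB motif AACTGNC, found in 12.8%, matched none of the windows of these genes. A match or its absence describes these letters only.

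The first question was how the RNAs of these genes stand in PS and RS of the dKO. *Paip2* rose 3.39-fold and *Cpeb2* 1.98-fold from PS to RS, and *Boll* fell 2.11-fold. The fitted fold change was under 1.5 for the other 6 genes, being above 0 on the log2 scale for *Dazl*, *Cpeb1* and *Pum2* and below 0 for *Pabpc1*, *Ybx2* and *Ddx25*. All 9 genes passed the filter of at least 10 reads in at least 2 libraries. The adjusted p was under 0.05 for 8 of the 9, against 64.5% of the 14647 genes tested. That count fell to 3 without RS replicate 2 (47.5% of all genes), to 5 without RS replicate 1 (45.7%) or PS replicate 2 (64.3%), and to 5 by DESeq2 (55.1%). With a change of at least 1.5-fold also required, 3 of the 9 were called, against 58.0% of all genes. Of the 3, *Paip2* and *Cpeb2* were among the 30.4% of all genes that rose and *Boll* among the 27.6% that fell. In RPKM the 2 stages did not overlap for any of the 9 genes, as was so for 83.6% of all genes. The median log2 fold change of RS over PS was 0.37 over the 9 genes and 0.01 over all genes.

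**Figure D1:**
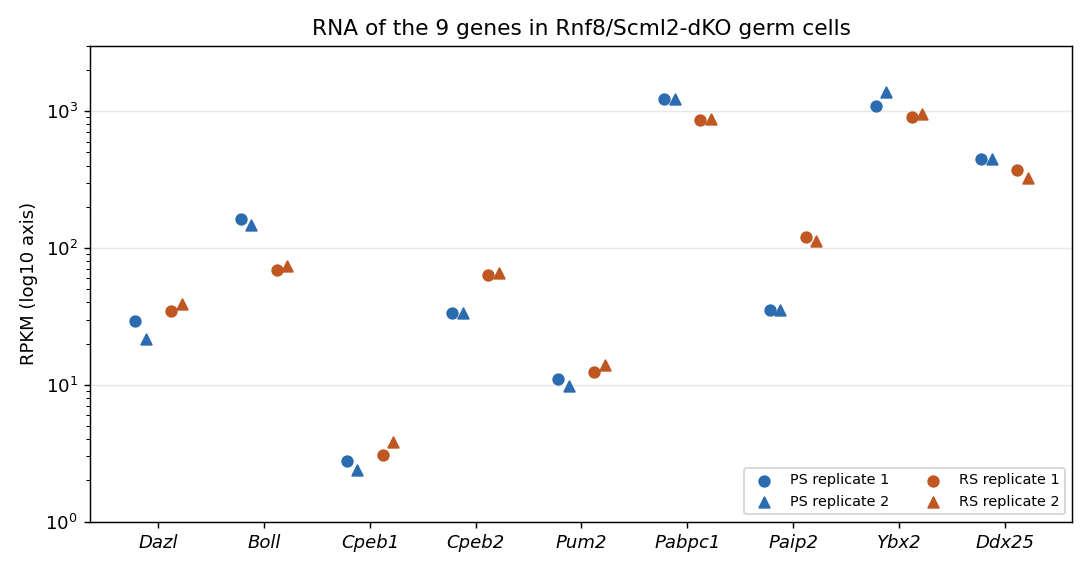
RPKM of the 9 genes on a log10 axis in the 4 dKO RNA libraries, with PS in blue, RS in orange, circles for replicate 1 and triangles for replicate 2. The levels run from 2.4 RPKM for *Cpeb1* to 1376 RPKM for *Ybx2*, and *Paip2* shows the widest gap between the stages.

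By level per length of transcript, the genes spanned a wide range in the order *Ybx2*, *Pabpc1*, *Ddx25*, *Boll*, *Paip2*, *Cpeb2*, *Dazl*, *Pum2* and *Cpeb1* by mean RPKM over the 4 libraries. *Ybx2* and *Pabpc1* did not separate, with means of 1078 and 1051 RPKM and an order that differed between libraries. Both stood at about the 99.9 percentile of all genes in every library or higher. The RPKM ranges of *Boll* and *Paip2* crossed, *Boll* being higher in PS and *Paip2* in RS. Likewise *Dazl* and *Cpeb2* overlapped, between 21.7 and 39.3 RPKM for *Dazl* and between 33.3 and 65.8 RPKM for *Cpeb2*. *Cpeb1* stood between percentiles 60.6 and 65.0 of all genes and rested on 81 to 141 reads per library.

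Among the mRNA-binding activators, *Dazl* (chr17:50279393-50293620, - strand) had 29.5 and 21.7 RPKM in PS replicates 1 and 2 and 34.6 and 39.3 RPKM in RS replicates 1 and 2. Both RS libraries were above both PS libraries, but the PS libraries differed from each other by more than the gap between the nearest libraries of the 2 stages. Its log2 fold change of 0.58 ± 0.16 (SE, edgeR adjusted p = 0.0133), or 1.49-fold, fell just short of the 1.5-fold threshold. Without PS replicate 1 it was 0.77 (adjusted p = 7.87e-04) and without RS replicate 1 it was 0.75 (adjusted p = 0.0133), both past the threshold, and it was 0.42 without PS replicate 2. Spermatogonia also carry *Dazl*, and of their 8 markers 4 were called higher in RS and 0 lower, as given above. *Dmrt1*, 1 of the 4, was at 6.78 and 4.28 RPKM in PS and 10.3 and 9.24 RPKM in RS. The part of spermatogonial RNA in the *Dazl* value was not tested.

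*Boll* (chr1:55300069-55363469, - strand), the DAZ family member of meiosis and spermatids, had 164 and 148 RPKM in PS and 69.1 and 74.4 RPKM in RS. Both PS libraries were well above both RS libraries. *Boll* fell by 1.08 on the log2 scale (SE 0.13, edgeR adjusted p = 1.20e-04), or 2.11-fold. The isoform starting at position 55362707 took 91.7% to 95.7% of the reads of *Boll* in every library, and the isoform starting at 55363469 took the rest.

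Taken against each other within a library, the 2 DAZ family RNAs moved closer together. *Boll* RNA was 5.56 and 6.81 times *Dazl* RNA per length in PS and 2.00 and 1.89 times in RS. The ratio was thus 3.16-fold lower in RS, by the mean of log2 ratios, and the stages did not overlap.

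Of the CPEB proteins, *Cpeb1* (chr7:81347026-81454758, - strand), known for its role in meiotic prophase, had 2.80 and 2.4 RPKM in PS and 3.08 and 3.85 RPKM in RS. Its log2 fold change was 0.46 ± 0.23 (SE, edgeR adjusted p = 0.108), so no change was detectable at this depth. *Cpeb2* (chr5:43233463-43289724, + strand), a CPEB of postmeiotic cells, had 33.3 and 33.8 RPKM in PS and 63.3 and 65.8 RPKM in RS. The replicates of *Cpeb2* lay close together and the stages far apart. *Cpeb2* rose by 0.98 ± 0.11 on the log2 scale (SE, edgeR adjusted p = 1.13e-04), or 1.98-fold.

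*Cpeb2* RNA was 11.9 and 14.0 times *Cpeb1* RNA per length in PS and 20.5 and 17.1 times in RS. Both RS ratios exceeded both PS ratios, by 1.45-fold on average, on the few reads of *Cpeb1*.

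*Pum2* (chr12:8674134-8752583, + strand), the repressor, had 11 and 9.80 RPKM in PS and 12.5 and 14.0 RPKM in RS, summed over 3 isoform rows. The RS libraries were slightly above the PS libraries, with a log2 fold change of 0.37 ± 0.14 (SE, edgeR adjusted p = 0.0407) that stayed under 1.5-fold. The 3 rows differ in their start sites. The row starting at position 8674134 had 0 and 3 reads in PS and 238 and 226 reads in RS, or 0% and 0.44% of the *Pum2* reads in PS and 22.1% and 22.2% in RS, and so was far higher in both RS libraries. The row starting at 8674681 was uneven within each stage, taking 25.9% of the reads in the first PS library and 5.20% in the first RS library, but 0% in both second replicates. The authors divided reads between these overlapping rows by estimation, the rows were not tested singly, and they were singled out after their values were seen.

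**Figure D2:**
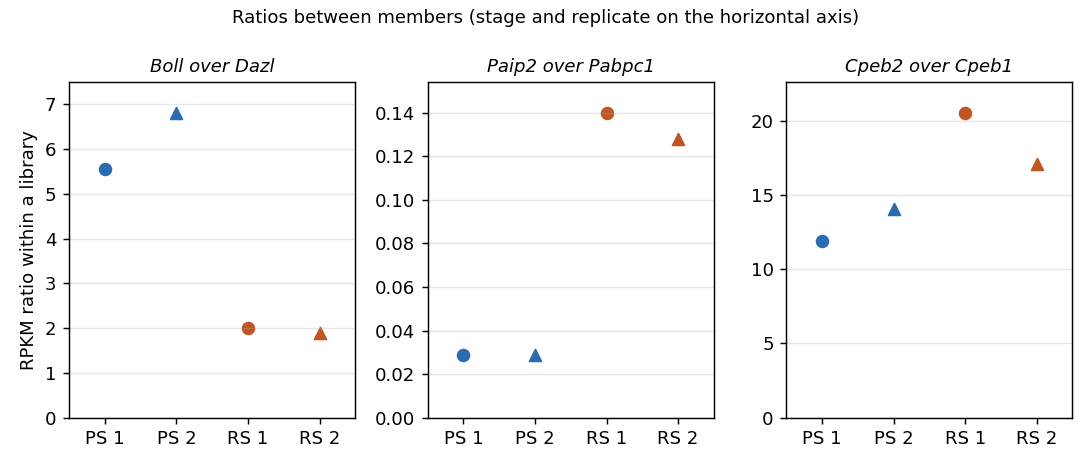
Ratios of RPKM between members within each dKO RNA library, on linear axes that start at 0, with PS in blue and RS in orange. *Boll* over *Dazl* falls from above 5 to about 2, *Paip2* over *Pabpc1* rises from 0.0285 to above 0.128, and *Cpeb2* over *Cpeb1* rises from 11.9 and 14.0 to 20.5 and 17.1.

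The poly(A)-binding protein and its inhibitor moved in opposite directions. *Pabpc1* (chr15:36595658-36608973, - strand) had 1237 and 1231 RPKM in PS and 863 and 875 RPKM in RS. The 2 libraries of a stage were nearly equal and the stages were apart. The log2 fold change of *Pabpc1* was -0.46 ± 0.10 (SE, edgeR adjusted p = 0.00430), or 1.38-fold lower in RS, under the 1.5-fold threshold. The adjusted p was 0.108 without RS replicate 1 and 0.103 without RS replicate 2. Reads were kept only where they aligned to 1 place, and *Pabpc1* has close copies, so its level is uncertain to the extent that reads were shared with them.

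*Paip2* (chr18:35598667-35617185, + strand) showed the largest RNA change of the 9 genes. It had 35.3 and 35.4 RPKM in PS and 121 and 112 RPKM in RS. Every RS library was more than 3 times every PS library. *Paip2* rose by 1.76 ± 0.13 on the log2 scale (SE, edgeR adjusted p = 1.03e-05), or 3.39-fold, and went from percentile 89.5 of all genes in both PS libraries to 96.7 and 96.6 in RS. *Paip2* RNA was 2.85% and 2.88% of *Pabpc1* RNA per length in PS and 14.0% and 12.8% in RS, a ratio 4.67-fold higher in RS.

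*Ybx2* (chr11:69935899-69941599, + strand), the mRNA-storing Y-box protein, had 1086 and 1376 RPKM in PS and 902 and 948 RPKM in RS. PS replicate 2 stood apart from the other 3 libraries, which lay between 902 and 1086 RPKM. The log2 fold change was -0.37 ± 0.14 (SE, edgeR adjusted p = 0.0450), under 1.5-fold. Without PS replicate 2 it was -0.14 (adjusted p = 0.285), and without RS replicate 1 or RS replicate 2 the adjusted p was 0.327 and 0.242.

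*Ddx25* (chr9:35541848-35558470, - strand), the helicase, had 444 and 450 RPKM in PS and 369 and 326 RPKM in RS. The RS libraries were below the PS libraries, with a log2 fold change of -0.32 ± 0.12 (SE, edgeR adjusted p = 0.0396), under 1.5-fold. Without RS replicate 2 it was -0.13 (adjusted p = 0.552), without RS replicate 1 the adjusted p was 0.149, and without PS replicate 2 it was 0.0834. Leydig cells also express *Ddx25*, and their markers were lower in RS, with *Insl3* at 593 and 450 RPKM in PS and 60.0 and 35.8 RPKM in RS. The part of Leydig RNA in the *Ddx25* value was not tested.

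Around these genes, 4 lists of other translational regulators were counted. Of 79 genes tested, 20 rose, 35 fell and 24 were not called, with a median log2 fold change of -0.43, beside 30.4% and 27.6% of all genes and a median of 0.01. By DESeq2 the called genes of these lists numbered 53 in place of 55, where 50.9% of all genes were called in place of 58.0%.

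In the cytoplasmic polyadenylation and deadenylation list, 6 of 22 genes rose and 11 fell. *Cpeb3*, another CPEB gene, had 1.27 and 1.65 RPKM in PS and 16.0 and 15.4 RPKM in RS and rose 11.1-fold (edgeR adjusted p = 3.53e-06). *Parn*, a poly(A) nuclease, rose 3.80-fold (adjusted p = 3.48e-05), and *Cnot8*, a deadenylase subunit, fell 3.55-fold (adjusted p = 1.07e-04). The most abundant were *Papolb*, the testis poly(A) polymerase, at 221 and 229 RPKM in PS and 391 and 374 RPKM in RS, which rose 1.75-fold (adjusted p = 3.37e-04), and *Cnot1*, the scaffold of the deadenylase complex, at 172 and 139 against 89.4 and 93.5 RPKM, which fell 1.66-fold (adjusted p = 0.00101).

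Of the 11 genes tested among poly(A)-binding proteins and their partners, 3 rose and 5 fell. *Paip1*, whose protein stimulates translation through PABPC1 where PAIP2 inhibits it, had 30.3 and 21.9 RPKM in PS and 3.52 and 4.78 RPKM in RS. It fell 5.95-fold (edgeR adjusted p = 1.82e-05), opposite in direction to *Paip2*. *Pabpc1l* rose 6.80-fold from 0.0680 and 0.209 RPKM (adjusted p = 0.00206), and *Larp4b* fell 2.44-fold (adjusted p = 1.32e-04). The most abundant were the *Pabpc1* relatives *Pabpc2*, between 299 and 351 RPKM with no call (adjusted p = 0.216), and *Pabpc6*, at 273 and 281 RPKM in PS and 150 and 172 RPKM in RS, which fell 1.67-fold (adjusted p = 7.09e-04).

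Of the 14 cap-binding genes tested, 4 rose and 4 fell. *Eif4g1*, the scaffold that joins the cap-binding protein to poly(A)-binding protein, rose 3.59-fold, from 20.5 and 22.7 to 75.9 and 75.3 RPKM (edgeR adjusted p = 7.61e-06). *Eif4ebp1*, an inhibitor of cap binding, rose 4.29-fold (adjusted p = 2.62e-04) and *Eif4e3* rose 3.0-fold (adjusted p = 0.00522). The most abundant, *Eif4g3* and *Eif4g2*, were not called, with adjusted p of 0.270 and 0.332.

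The germ cell RNA-binding list had 7 of 32 genes higher and 15 lower. The largest changes were falls of *Adad2* by 6.03-fold (edgeR adjusted p = 2.04e-05), of the stress granule protein gene *G3bp1* by 4.75-fold (adjusted p = 6.58e-06), and of the splicing regulator gene *Rbm5* by 3.79-fold (adjusted p = 5.14e-05). *Ybx3* and *Ybx1*, the other Y-box genes, were the most abundant. *Ybx3* had 899 and 1031 RPKM in PS and 692 and 628 RPKM in RS (log2 fold change -0.51, adjusted p = 0.00760), and *Ybx1* had 479 and 513 against 365 and 335 RPKM (-0.46, adjusted p = 0.00829). Both were thus lower in RS by less than 1.5-fold, as was *Ybx2*.

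Of 11 genes of late sperm proteins whose mRNAs are known to be stored, 10 rose, where 30.4% of all genes did, with a median log2 fold change of 3.95. *Prm2*, *Prm1* and *Tnp2*, which encode protamines and a transition protein, rose 28.7-fold, 27.4-fold and 20.8-fold (edgeR adjusted p of 5.08e-06, 3.29e-06 and 8.02e-06). This list shares genes with the round spermatid markers above, among them *Prm2*, *Prm1* and *Tnp2*. Its rise therefore in part repeats the check of the stage labels and is no separate result. *Ldhc*, the sperm lactate dehydrogenase, was the most abundant at 3357 and 3343 RPKM in PS and 2358 and 2276 RPKM in RS and was not called (log2 fold change -0.49).

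The second question was how H3K27ac at the start sites of these genes differs between wild-type PS and RS. The measure is the fold enrichment of the highest interval within 2 kb of any start site of the gene, that is, the fragment pileup over a constant background of the library, with 1 added to both. The lists held no read totals, so depth was unknown. The number of intervals, 41095 to 74919 with the most in RS replicate 1, and the background constants, 0.723 to 1.46 fragments, show that the libraries were not alike. All 9 genes had a start-site interval in all 4 libraries. Over the 13699 genes tested, the median log2 difference of RS minus PS was -0.43, and each difference below is given as measured and relative to that median.

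**Figure D3:**
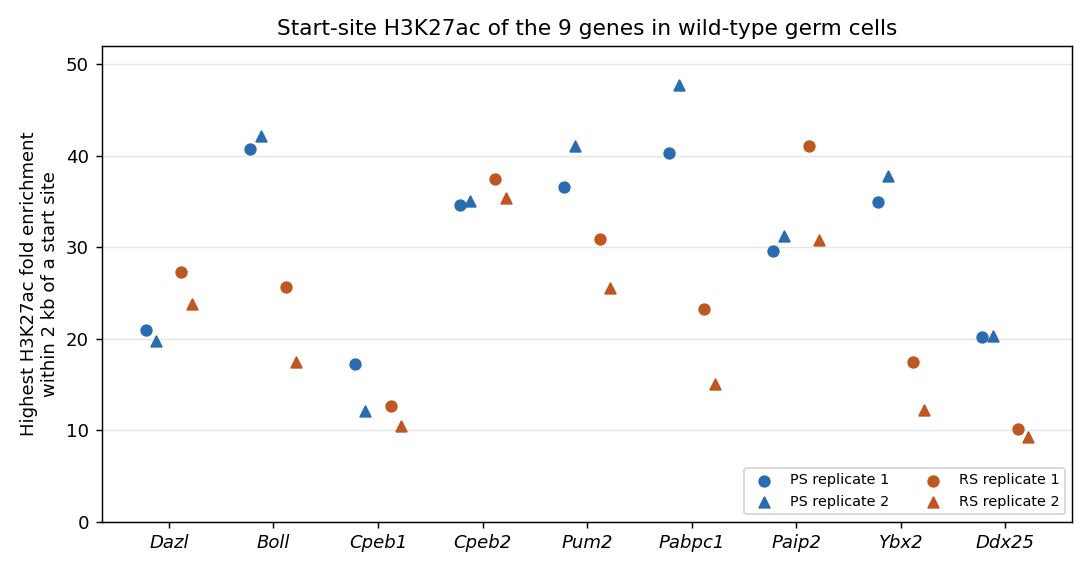
Highest H3K27ac fold enrichment within 2 kb of a start site in the 4 wild-type libraries, on a linear axis from 0, with PS in blue and RS in orange. *Boll*, *Ybx2*, *Pabpc1*, *Pum2* and *Ddx25* are lower in both RS libraries than in both PS libraries, *Dazl* and *Cpeb2* are higher, and *Paip2* and *Cpeb1* overlap.

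By limma, 2 of the 9 start sites were called lower in RS, those of *Ybx2* and *Ddx25*, against 11.3% of all genes, and none of the 9 was called higher, against 4.56% of all genes. At an unadjusted p under 0.05, 4 of the 9 differed, all lower in RS, against 38.5% of all genes in either direction. The stages did not overlap with RS lower for 5 of the 9 genes, against 58.1% of all genes, and with RS higher for 2 of the 9, against 14.6%. Of all calls 28.7% were higher in RS, and after quantile normalization, which sets the 4 libraries to 1 distribution, 53.1% were. Under quantile normalization 4 of the 9 were called, against 22.6% of all genes: *Boll* at -0.59 (adjusted p = 0.0448), *Pabpc1* at -0.83 (adjusted p = 0.0279) and *Ybx2* at -0.89 fell, and *Dazl* rose at 0.70 (adjusted p = 0.0320), while *Ddx25* was lost (-0.59, adjusted p = 0.0694). The calls of single start sites therefore rested on the setting. With the enrichment ratio taken without the added 1, none of the 9 was called, against 8.85% of all genes. Among genes with an interval in all 4 libraries, *Boll*, *Pabpc1*, *Ybx2* and *Ddx25* were all called, as lower, against 43.0% of genes in either direction.

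*Ybx2* was enriched 35.0-fold and 37.8-fold in PS replicates 1 and 2 and 17.5-fold and 12.2-fold in RS replicates 1 and 2. Both RS libraries were far below both PS libraries. The log2 difference was -1.26 ± 0.24 (SE, limma adjusted p = 0.0440), or -0.83 relative to the median. Ranked among the 11394 genes with a start-site interval in all 4 libraries, as a description with no test, *Ybx2* stood at percentiles 94.8 and 94.5 in PS and 59.7 and 53.6 in RS. The adjusted p of *Ybx2* stayed under 0.05 in 7 of 13 alternatives. The call was lost when the ratio was taken without the added 1 (limma adjusted p = 0.0679), where 8.85% of all genes were called. It was also lost when genes with an interval in only 1 sample were tested too (adjusted p = 0.064), where 9.87% were called. With the replicate block it was lost as well (adjusted p = 0.0775), where 8.62% were called. With 1 sample left out, the log2 difference of *Ybx2* ran from -1.502 (RS replicate 1) to -1.015 (RS replicate 2).

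*Ddx25* had 20.2 and 20.3 in PS and 10.2 and 9.29 in RS. The replicates of each stage were close and the stages apart, with a log2 difference of -0.99 ± 0.17 (SE, limma adjusted p = 0.0356), or -0.55 relative to the median. The adjusted p of *Ddx25* stayed under 0.05 in 6 of 13 alternatives. Its call too was lost when the ratio was taken without the added 1 (limma adjusted p = 0.105). The same held when genes with an interval in only 1 sample were tested too (adjusted p = 0.0524) and with the replicate block (adjusted p = 0.103). With 1 sample left out, its log2 difference ran from -1.045 (RS replicate 1) to -0.926 (RS replicate 2). Its percentile in that set was 61.0 and 55.4 in PS and 25.7 and 36.2 in RS, and its RNA stood between percentiles 99.4 and 99.7 of all genes in every RNA library. The start site of *Pus3*, on the other strand, lies 996 bp away in the annotation of the RNA tables and 90 bp away in RefSeq GRCm38.p6. Both lie in the same H3K27ac region, which cannot be assigned to either gene alone. *Pus3* RNA was at 5.41 and 4.56 RPKM in PS and 6.64 and 6.71 RPKM in RS (log2 fold change 0.46, edgeR adjusted p = 0.0703).

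*Pabpc1* had the highest single value, 47.7 in PS replicate 2, with 40.3 in PS replicate 1 and 23.2 and 15.1 in RS. The RS libraries were lower and differed from each other. The log2 difference of -1.18 ± 0.28 (SE, limma adjusted p = 0.0612), or -0.75 relative to the median, was not called. Its percentile was 98.3 and 99.0 in PS and 80.0 and 68.7 in RS.

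*Boll* had 40.7 and 42.2 in PS and 25.6 and 17.4 in RS. Here too both RS libraries were lower. The log2 difference of -0.94 ± 0.25 (SE, limma adjusted p = 0.0766), or -0.51 relative to the median, was not called. The percentile of *Boll* was 98.4 and 97.5 in PS and 85.8 and 78.1 in RS.

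*Dazl* had 21.0 and 19.7 in PS and 27.3 and 23.8 in RS, higher in both RS libraries. The log2 difference was 0.31 ± 0.18 (SE, limma adjusted p = 0.254), or 0.74 relative to the median, the highest of the 9 by this measure. Its percentile was 64.2 and 53.4 in PS and 88.9 and 92.0 in RS.

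*Paip2* had 29.6 and 31.2 in PS and 41.1 and 30.8 in RS, and the stages overlapped. Its log2 difference was 0.22 ± 0.22 (SE, limma adjusted p = 0.475), or 0.65 relative to the median, and its percentile was 87.2 and 85.7 in PS and 99.5 and 97.8 in RS. *Cpeb2* was nearly level, at 34.6 and 35.1 in PS and 37.4 and 35.4 in RS, with a log2 difference of 0.06 ± 0.16 (SE, limma adjusted p = 0.796), or 0.50 relative to the median. Its percentile was 94.4 and 91.4 in PS and 98.4 and 99.3 in RS. The deposited lists assign the interval over the *Cpeb2* start to *Gm7854* as well. In RefSeq this long noncoding RNA gene overlaps that start, so the interval cannot be assigned to *Cpeb2* alone.

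*Pum2* had 36.6 and 41.1 in PS and 30.9 and 25.5 in RS, a log2 difference of -0.45 ± 0.20 (SE, limma adjusted p = 0.173) that equalled the median of all genes to within 0.02. *Cpeb1* had the lowest enrichment in PS, 17.3 and 12.1, with 12.6 and 10.4 in RS. The stages overlapped for *Cpeb1*, whose log2 difference of -0.31 (limma adjusted p = 0.393) turned to 0.09 after quantile normalization.

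**Figure D4:**
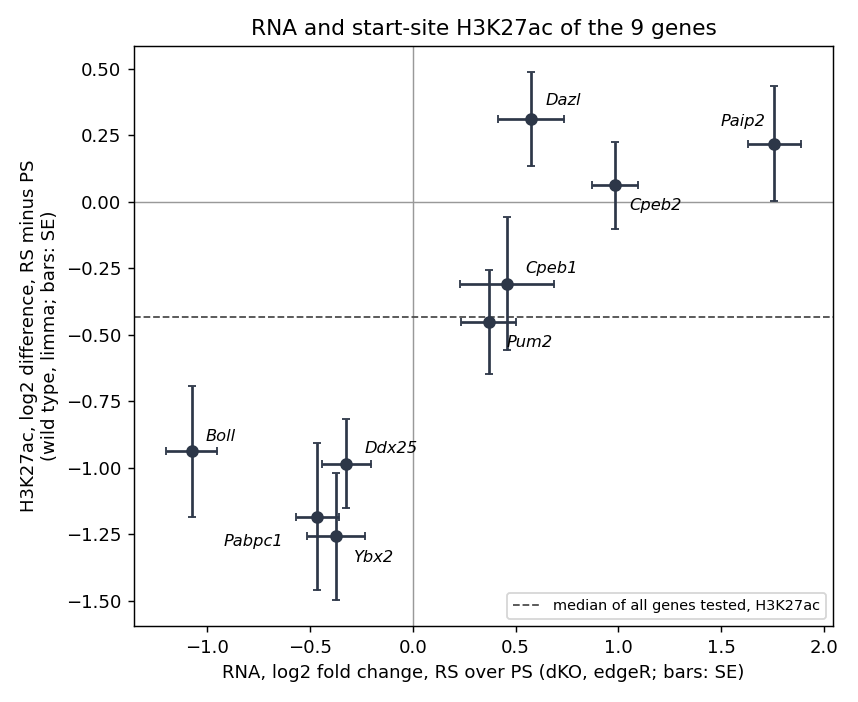
Log2 fold change of RNA, RS over PS in the dKO, on the horizontal axis and log2 difference of start-site H3K27ac, RS minus PS in the wild type, on the vertical axis, with SE bars. The dashed line is the median H3K27ac difference of all genes, -0.43. *Boll*, *Pabpc1*, *Ybx2* and *Ddx25* lie at the lower left, and *Paip2*, *Cpeb2* and *Dazl* at the upper right.

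Set side by side, RNA and start-site H3K27ac had the same sign for 7 of the 9 genes, and the same held for 65.5% of the 12368 genes tested in both assays. The 4 genes with less RNA in RS, *Boll*, *Pabpc1*, *Ybx2* and *Ddx25*, had the 4 most negative H3K27ac differences. The 2 genes of unlike sign, *Cpeb1* and *Pum2*, had slightly more RNA and less H3K27ac in RS, and relative to the median H3K27ac difference *Cpeb1* stood at 0.13 and *Pum2* at -0.02. The Pearson correlation of the 2 differences was 0.44 across all genes and 0.86 across the 9, as a description: genes of a library share its depth and scaling, 9 points are few, and the assays differ in genotype. Sizes did not match gene by gene. *Ybx2* H3K27ac was 2.39-fold lower in RS and its RNA 1.30-fold lower, whereas *Paip2* RNA was 3.39-fold higher and its H3K27ac 1.16-fold higher.

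Beyond the start sites, intervals joined over the 4 libraries at gaps of up to 1000 bp formed 34 regions, of which 9 covered a start site and 25 did not. Of the 25, 16 were found in 1 library, 15 of them in RS replicate 1, the library with the most intervals, and the 16 had fold enrichments of 2.85 to 4.88. Only 2 of the 25, near *Dazl* and *Pum2*, were found in all 4 libraries. As these regions were not tested across the genome, the values below are given without a test.

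**Figure D5:**
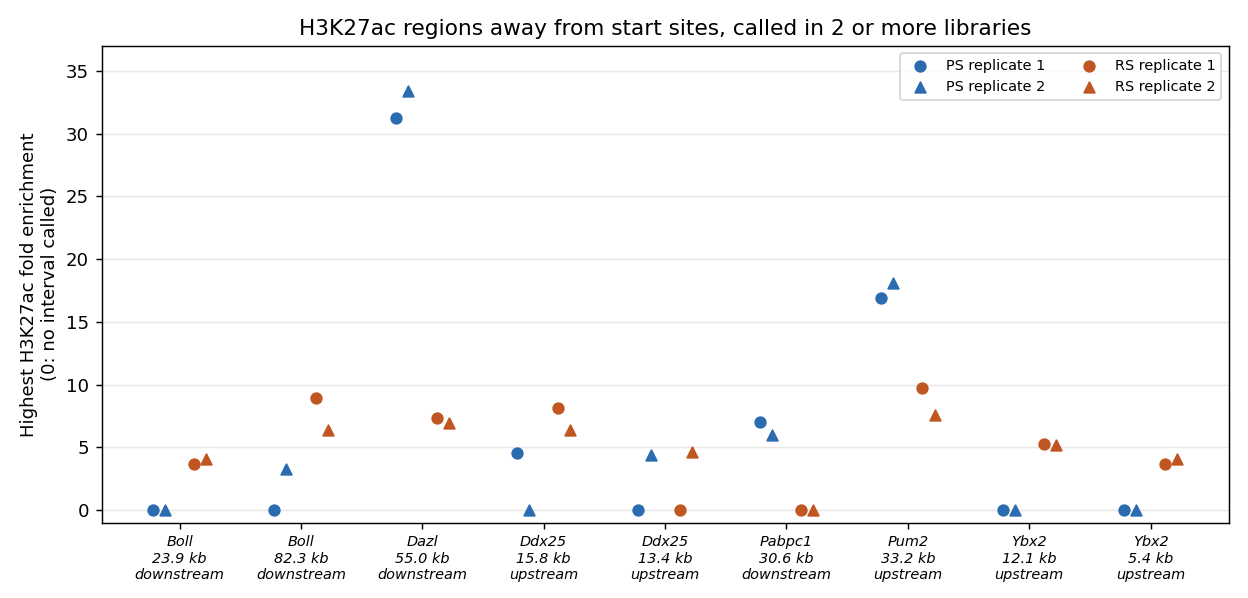
Highest H3K27ac fold enrichment in the 9 regions away from start sites that were found in at least 2 libraries, labelled by gene and distance of the strongest summit from the nearest start site of that gene. A value of 0 means that no interval was called. The *Dazl* region 55.0 kb downstream is at 31.3 and 33.4 in the PS libraries and at 7.32 and 6.97 in the RS libraries.

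The region near *Dazl* (chr17:50236132-50245064), with its strongest summit 55.0 kb downstream of the start site, was enriched 31.3-fold and 33.4-fold in PS but 7.32-fold and 6.97-fold in RS. The mean was 4.53-fold higher in PS, opposite in direction to the *Dazl* start site, and in PS the region exceeded the start site of *Dazl* itself (21.0 and 19.7). In PS its strongest summits lay within 27 bp of each other in the 2 replicates, in the stretch printed above, and each PS library had 4 intervals in the region. In RS the region held 10 and 9 intervals, and the strongest summits lay 276 and 5400 bp away. The deposited lists call the region intergenic with *Dazl* as the nearest gene. In the RefSeq annotation of GRCm38.p6 its strongest summit lies 566 bp from the nearer end of *AY702103* (chr17:50239208-50246316). This long noncoding RNA gene is not in the RNA tables, and whether that end is its start was not examined. The region also overlaps *Gm41597*, another long noncoding RNA gene.

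The region near *Pum2* (chr12:8640194-8641566), 33.2 kb upstream, had 16.9 and 18.1 in PS and 9.76 and 7.55 in RS, a mean 2.02-fold higher in PS. It was higher in both PS libraries, and no other RefSeq gene lay within 41128 bp of it. A small region 30.6 kb downstream of the *Pabpc1* start was found in PS only, at 7.00 and 6.03.

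Other regions were found in both RS libraries and in neither PS library. Near *Ybx2* such regions lay 12.1 kb upstream, at 5.29 and 5.22, and 5.4 kb upstream, at 3.66 and 4.06. The first lay 1563 bp from *Eif5a*, a translation factor gene, in the RefSeq annotation. In an intron of *Boll*, 23.9 kb from its nearer start, a region had 3.66 and 4.06. There the intervals of RS replicate 1 and RS replicate 2 did not overlap and were joined across a gap. A region 82.3 kb from the *Boll* start had 8.95 and 6.39 in RS, 3.29 in PS replicate 2 and no interval in PS replicate 1. Upstream of *Ddx25*, a region at 15.8 kb had 8.14 and 6.39 in RS, 4.53 in PS replicate 1 and none in PS replicate 2. A region at 13.4 kb had intervals in replicate 2 of each stage alone, at 4.38 in PS and 4.64 in RS. Those intervals of PS and RS did not overlap and were joined across a gap. The enrichments of all these regions are low, so an absent interval does not show absent H3K27ac.

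Interval breadth at the start sites is given without a test. The interval over the *Ybx2* start spanned 4210 and 4182 bp in PS and 7064 and 2149 bp in RS, and that of *Pabpc1* spanned 4596 and 5667 bp in PS and 4578 and 4058 bp in RS. For *Paip2* both RS libraries, at 4680 and 4069 bp, were broader than both PS libraries, at 2559 and 2411 bp. The same held for *Pum2*, at 3819 and 2595 bp in RS and 2443 and 2350 bp in PS. At *Dazl* the spans were 2441 and 2253 bp in PS and 3314 and 2386 bp in RS, and RS replicate 1 had the broadest interval of the 4 libraries at 8 of the 9 genes, all but *Pabpc1*.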

How the data were processed

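Files came from 8 samples, in groups of 2 that follow the labels: H3K27ac in wild-type PS and in wild-type RS, and RNA in dKO PS and in dKO RS. For ChIP-seq, the authors mapped reads to mm10 with Bowtie and ran MACS2 on every sample singly; for RNA-seq they used STAR and divided unique alignments between RefSeq isoforms by expectation maximization. The submitters' processing notes name Bowtie 1.1.1, MACS2 2.1.0.20140616 and STAR 2.4.2a, and the study's methods name other versions of Bowtie and MACS2. The RNA kit does not mark strand. The authors deposited read counts per isoform, not normalized, and RPKM scaled by the authors to length and library size. In the deposited lists, each summit has a pileup signal, a fold enrichment ratio over 1 background constant per sample, and −log10 p-values and q-values.

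Isoform rows were summed per gene and summits joined into intervals. Read counts were tested with edgeR 4.0.16 (quasi-likelihood, TMM), for the 14647 genes that reached 10 counts in 2 or more samples. Start-site H3K27ac was tested with limma 3.58.1 on log2(1 + fold enrichment), with 0 where no interval lay within 2 kb, for 13699 genes with an interval in 2 or more samples; such fold changes understate low values. A call needed an adjusted p under 0.05 and a 1.5-fold change. R 4.3.3, DESeq2 1.42.0, Python 3.11.15, pandas 2.3.3, matplotlib 3.10.9 and samtools 1.23.1 were used. Genes named were the 9 members, *Rnf8* and *Scml2*, and in each list the 3 called genes that changed most and the 2 most abundant. *Dmrt1*, *Insl3*, *Pus3*, *Gm7854* and genes beside distal regions were named after values were seen. The members and lists were chosen with earlier results of these data known. Promoter windows and genome sequence are from RefSeq GRCm38.p6, whose coordinates match the files. Alternatives covered normalization, filters, pseudocounts, windows, thresholds, a replicate block and leaving out each sample; 2 of them, library totals without TMM and summits within 2 kb only, were added after seeing the data. The fits were tested on simulated data with large changes only.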

Additional observations from a re-analysis of the deposited data

How the results depend on the processing

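*Paip2*, *Cpeb2* and *Boll* were called in all 11 RNA alternatives, and the sign of each of the 9 RNA changes held in all 11. The adjusted p under 0.05 was kept in 10 of 11 alternatives for *Dazl*, 9 for *Pabpc1*, 6 for *Ybx2*, 5 for *Ddx25* and 3 for *Pum2*. DESeq2, other size factors (RLE) and the replicate block took *Dazl* past 1.5-fold and so gave 4 called members in place of 3. These settings called 50.9%, 58.0% and 59.6% of all genes. The *Dazl* log2 fold change was 0.77 without PS replicate 1, 0.42 without PS replicate 2, 0.75 without RS replicate 1 and 0.59 without RS replicate 2. Start-site H3K27ac depended on the setting. Without PS replicate 1 or PS replicate 2 no gene was called by limma, with 2584 and 2271 genes at an unadjusted p under 0.05, and leaving out each sample gave 0 to 4685 called genes and 0 to 4 called members, against 2178 and 2. Where no member was called, 1 of the 9 without either PS sample and 4 of the 9 otherwise had an unadjusted p under 0.05. The count of genes was 4685 without RS replicate 1 and 522 without RS replicate 2. Pileup over background gave 1213 called genes (8.85%) and 0 called members. For the 11394 genes with an interval in all 4 samples, 4897 (43.0%) and 4 members were called. Quantile normalization gave 4 called members, against 22.6% of all genes, and turned *Cpeb1* from -0.31 to 0.088, the only reversal. An interval in at least 1 sample gave 0 called members, against 9.87% of 14736 genes. The log2 differences of the other 8 members kept their sign in all 13 alternatives, and windows of 1 kb and 5 kb left all 9 as they were. The cause of these shifts was not tested.

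Although PS and RS could be taken from 1 male, the labels do not say that same-numbered samples share an animal or a day. Their deviations correlated at 0.23 across genes for RNA and at 0.003 for H3K27ac, over 1 pair of differences per assay. With the replicate block, 8723 genes (59.6%) and 4 members were called for RNA, and 1181 genes (8.62%) and 0 members for H3K27ac.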
